A study of Homo sapiens with 12 samples.

Results

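The 10 genes described here are the core factors of non-homologous end joining: XRCC5, XRCC6, NHEJ1, LIG4, XRCC4, PRKDC, DCLRE1C, PAXX, POLL and POLM. They were taken by symbol, matched to their gene identifiers, and were followed in all 12 libraries both as gene sums and as single transcripts. They make up 10 of the 61860 genes and 163 of the 251121 transcripts in the count table, and all 10 passed the filter on low counts.

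Non-homologous end joining is the main route by which human cells seal DNA double-strand breaks outside S phase, and lymphocytes use it to join V(D)J segments. The Ku heterodimer of XRCC5 (Ku80) and XRCC6 (Ku70) binds the broken ends and recruits the kinase DNA-PKcs, encoded by PRKDC. The nuclease Artemis (DCLRE1C) and the polymerases POLL and POLM process the ends, and LIG4 joins them with its partner XRCC4, helped by XLF (NHEJ1) and PAXX.

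The RNA came from Flp-In T-REx 293 cells, a derivative of the human embryonic kidney line HEK293. Both lines carried a doxycycline-inducible cassette that expresses chained miRNAs against the endogenous transcriptional coactivator PGC-1α together with a FLAG-tagged, miRNA-resistant PGC-1α, which is full length in WT-res and lacks the arginine/serine-rich RS domain in ΔRS-res. Cells of both lines received doxycycline for 6 days, so no group here was uninduced. Whole-cell RNA was taken from a single well and cytoplasmic RNA from pooled wells, with 3 libraries for each line and fraction. Per the methods of the study such lines grew from individual hygromycin-resistant colonies, so that an effect of the RS domain and a difference between colonies cannot be told apart. Replicates were consecutive passages, and the p-values measure the spread between those. In bulk RNA a lower share of cells with a transcript and less of it per cell cannot be told apart.

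Total expected counts ran from 90333190 to 144628005 per library. The HEK293 markers VIM, KRT8, KRT18, PAX2, NEFL and NEFM were all detected, while the blood markers PTPRC, CD3E and DNTT stayed at 5 counts or fewer in every library. RAG2, a subunit of the V(D)J recombinase, had at most 6 counts, and its partner RAG1 had 36 to 153 counts. RAG1 was lower in ΔRS-res in the study's 4 cytoplasmic libraries (-1.01, adjusted p 0.0113) and higher in cytoplasm than in whole-cell RNA of WT-res (1.12, adjusted p 0.0146), and its part in the results was not tested. The library labelled whole-cell WT-res 3 went against its label: DDX19B, an RNA helicase gene, had a count scaled to library size (CPM) of 0.204 there, 12.1 to 15.2 CPM in the remaining WT-res libraries and 0.215 to 0.352 CPM in the ΔRS-res libraries. It is called the doubted library below. The main whole-cell results are given with and without it.

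Promoter sequences are shown first for NHEJ1, LIG4, XRCC6, XRCC4 and POLM, the genes with an entry in the table used that were called between lines or fractions, and 2 of them share a start region with another gene. Of the 10 genes, 8 had entries in the RefSeq promoter table (GRCh38.p14), with 15 start sites in all. XRCC5 and PRKDC had none. Each window runs from 250 bases before to 50 bases after the start, on the strand of the gene. Capitals mark matches, on either strand, to CCGGAAG (GABPA and other ETS factors), GCGCANGCG (NRF1), AAGGTCA (oestrogen-related receptors, partners of PGC-1α) and GGGCGG (SP1).
NHEJ1 (chr2:219160766-219161065, minus strand): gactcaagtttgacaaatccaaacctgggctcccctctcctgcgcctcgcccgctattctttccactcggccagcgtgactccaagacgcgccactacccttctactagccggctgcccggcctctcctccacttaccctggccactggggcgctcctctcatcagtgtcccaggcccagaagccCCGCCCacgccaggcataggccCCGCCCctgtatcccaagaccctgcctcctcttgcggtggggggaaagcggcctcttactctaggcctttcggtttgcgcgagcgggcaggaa
LIG4, upstream start shared with ABHD13 (chr13:108218300-108218599, minus strand): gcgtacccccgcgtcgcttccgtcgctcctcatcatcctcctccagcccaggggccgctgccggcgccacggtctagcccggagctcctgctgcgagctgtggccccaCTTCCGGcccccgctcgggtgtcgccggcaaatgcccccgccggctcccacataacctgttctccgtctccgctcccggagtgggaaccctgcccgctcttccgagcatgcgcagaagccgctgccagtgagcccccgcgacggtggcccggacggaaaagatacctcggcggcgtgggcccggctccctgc
LIG4, downstream start (chr13:108215487-108215786, minus strand): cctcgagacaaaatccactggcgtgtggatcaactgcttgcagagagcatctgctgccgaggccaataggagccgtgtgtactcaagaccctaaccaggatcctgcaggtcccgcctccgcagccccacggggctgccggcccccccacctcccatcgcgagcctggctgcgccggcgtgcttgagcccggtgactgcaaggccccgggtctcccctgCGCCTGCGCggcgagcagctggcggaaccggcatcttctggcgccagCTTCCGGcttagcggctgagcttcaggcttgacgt
XRCC6, shared with DESI1 (chr22:41621045-41621344, plus strand): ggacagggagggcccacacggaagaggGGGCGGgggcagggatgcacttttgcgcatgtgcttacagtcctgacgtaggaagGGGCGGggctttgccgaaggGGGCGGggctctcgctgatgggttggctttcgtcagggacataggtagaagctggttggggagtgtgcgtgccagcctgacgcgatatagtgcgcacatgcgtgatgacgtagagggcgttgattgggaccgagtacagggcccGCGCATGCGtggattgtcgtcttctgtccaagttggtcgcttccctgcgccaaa
XRCC4 (chr5:83077297-83077596, plus strand): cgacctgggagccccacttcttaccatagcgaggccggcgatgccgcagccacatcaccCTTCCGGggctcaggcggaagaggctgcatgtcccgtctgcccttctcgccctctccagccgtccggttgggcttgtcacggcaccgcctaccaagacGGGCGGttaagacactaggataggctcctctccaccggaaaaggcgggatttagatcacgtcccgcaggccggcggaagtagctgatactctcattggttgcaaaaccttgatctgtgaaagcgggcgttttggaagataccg
POLM (chr7:44082481-44082780, minus strand): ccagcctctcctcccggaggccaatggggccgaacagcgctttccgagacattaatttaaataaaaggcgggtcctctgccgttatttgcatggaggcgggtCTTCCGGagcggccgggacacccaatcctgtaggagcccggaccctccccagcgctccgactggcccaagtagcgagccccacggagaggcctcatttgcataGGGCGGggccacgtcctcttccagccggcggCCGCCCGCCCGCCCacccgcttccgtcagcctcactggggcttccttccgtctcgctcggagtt

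The ETS letters occurred in 6 of the 8 matched genes, against 10.3% of all 35116 promoter windows. The NRF1 letters occurred in 3 of 8 against 7.52%, and those of the oestrogen-related receptors in 0 of 8 against 3.92%. The SP1 letters were common everywhere, in 7 of 8 genes and 45% of windows. A gene with several start sites counted once if any window held the letters, so the 2 kinds of share are not on the same footing. Both LIG4 windows printed above held an ETS match, and the downstream one also held an NRF1 match. LIG4 had further windows that are not printed. That at chr13:108215323-108215622 held an ETS and an NRF1 match, and that at chr13:108215256-108215555 held an ETS match. The window at chr13:108214733-108215032 held neither. NHEJ1 had another window, at chr2:219160506-219160805, that is not printed and held its NRF1 match. The XRCC4 and POLM windows each held 1 ETS match.

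Levels between genes were compared as TPM, which scales counts to transcript length and to the library. XRCC6 had the highest mean level over the 12 libraries at 539 TPM, with a range of 394 to 653 TPM. PRKDC followed at 318 TPM and XRCC5 at 286 TPM, and their ranges overlapped, PRKDC being higher in 7 of 12 libraries. PAXX lay apart from its neighbours at 55.8 TPM. The other 6 genes had lower levels, from 20.5 TPM for POLL to 7.82 TPM for LIG4, and each overlapped the next in the order. The Ku subunits and the kinase were thus far more abundant as RNA than the ligase they recruit.

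The first question was whether end joining transcripts differed between cells with the full-length coactivator and cells with the form lacking the RS domain. In cytoplasmic RNA NHEJ1 was lower in ΔRS-res, at -0.64 on the log2 scale, and XRCC5, at -0.52, missed the threshold over all 6 libraries. XRCC6, PRKDC, DCLRE1C, PAXX, POLL and POLM lay between -0.05 and 0.13 there. In whole-cell RNA LIG4 and XRCC4 had the lowest values relative to WT-res, but no member passed the test.

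Among the end-binding factors, XRCC5 (ENSG00000079246, chr2:216107464-216206303) had 792, 1007 and 840 CPM in the WT-res cytoplasmic libraries and 639.9, 671 and 522 CPM in those of ΔRS-res. The groups did not overlap. The log2 fold change was -0.52 (SE 0.129) with an adjusted p of 0.136 in edgeR's quasi-likelihood test over all genes, which missed the threshold of 0.05. DESeq2 called it (adjusted p 0.0177). The study compared 4 of these libraries, setting aside WT-res replicate 2 and ΔRS-res replicate 3. In those 4 the fold change was -0.30 (SE 0.053, adjusted p 0.0124).

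In whole-cell RNA XRCC5 had 765, 790.2 and 422 CPM in the libraries labelled WT-res and 538, 537 and 434 CPM in ΔRS-res. The lowest of all 6 was the library labelled whole-cell WT-res 3. With it the log2 fold change was -0.40 (SE 0.234, adjusted p 0.545), and without it -0.65 (SE 0.103, adjusted p 0.0265).

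XRCC6 (ENSG00000196419, chr22:41621163-41664048), the other Ku subunit, had 778, 949 and 801 CPM in WT-res cytoplasm and 951, 969.6 and 836 CPM in ΔRS-res cytoplasm. These ranges overlapped, and the log2 fold change was 0.13 over all 6 libraries. In the study's 4 libraries XRCC6 was higher in ΔRS-res by 0.30 (SE 0.0456, adjusted p 0.00707). The whole-cell difference was 0.12 on the log2 scale, or 0.05 without the doubted library, and did not pass the test.

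The ratio of XRCC5 to XRCC6, from TPM, describes the balance of the 2 Ku transcripts. It was 0.664 ± 0.0142 (SD, n = 3) in WT-res cytoplasm and 0.422 ± 0.0232 (SD, n = 3) in ΔRS-res cytoplasm. In whole-cell RNA the WT-res libraries gave 0.689, 0.716 and 0.444, and the ΔRS-res libraries gave 0.436, 0.449 and 0.411. The 0.444 belonged to the doubted library, and the remaining 5 WT-res libraries, whole-cell and cytoplasmic, lay above all 6 ΔRS-res libraries.

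NHEJ1 (ENSG00000187736, chr2:219069355-219160869) encodes XLF, which aligns the ends for the ligase. It had 39.2, 41.3 and 39.5 CPM in WT-res cytoplasm and 25.4, 25.7 and 25.3 CPM in ΔRS-res cytoplasm. Replicates lay close together and the groups were far apart. The log2 fold change was -0.64 (SE 0.0716, adjusted p 0.00547) over 6 libraries and -0.60 (SE 0.0483, adjusted p 0.00132) over the study's 4. NHEJ1 was still called when any 1 of the 6 cytoplasmic libraries was left out.

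The whole-cell libraries labelled WT-res had 33.4, 33.5 and 18.7 CPM of NHEJ1, and those of ΔRS-res 22.8, 22.1 and 20.9 CPM. The 18.7 CPM again came from the library labelled whole-cell WT-res 3. The log2 fold change was -0.39 (adjusted p 0.524) with that library and -0.63 (SE 0.0765, adjusted p 0.01) without it. NHEJ1 overlaps a same-strand gene model, ENSG00000280537, and reads shared by both could have been split between them.

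LIG4 (ENSG00000174405, chr13:108207439-108218368), the ligase of the pathway, had 18.3, 30.3 and 29.3 CPM in the libraries labelled WT-res whole-cell and 13.5, 17.1 and 13.6 CPM in ΔRS-res. All 3 ΔRS-res values were lower. The 29.3 CPM came from the doubted library, which for LIG4 did not lie among the ΔRS-res values. The log2 fold change was -0.83 (SE 0.2) with an unadjusted p of 0.00379 and an adjusted p of 0.212. It was -0.74 (adjusted p 0.123) without the doubted library. Same-numbered whole-cell libraries of the 2 lines deviated alike from their group means (r of 0.54, 0.55 and 0.68). With the number as a block in edgeR the fold change was -0.80 (adjusted p 0.0277). That fit held the doubted library and was not run without it.

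In cytoplasm LIG4 had 27.4, 39.6 and 27.2 CPM in WT-res and 30.4, 31.9 and 21.3 CPM in ΔRS-res. The groups overlapped, and the log2 fold change was -0.17 (SE 0.198). In the study's 4 libraries it had the opposite sign, 0.21 (SE 0.0535, adjusted p 0.0383).

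XRCC4 (ENSG00000152422, chr5:83077498-83353787), which stabilises LIG4, had 8.02, 13.3 and 16.0 CPM in the libraries labelled WT-res whole-cell and 7.27, 7.95 and 7.63 CPM in ΔRS-res. The groups as labelled came close at 8.02 and 7.95 CPM but did not overlap. The highest value, 16.0 CPM, came from the doubted library. The log2 fold change was -0.72 (SE 0.229, adjusted p 0.261), and -0.50 (adjusted p 0.221) without the doubted library. In cytoplasm it was -0.06. XRCC4 overlaps TMEM167A on the opposite strand, and without a known strand setting reads of the 2 genes may not be told apart, which bears on its fraction values too.

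PRKDC (ENSG00000253729), the kinase, had 2015, 2001 and 2131 CPM in the libraries labelled WT-res whole-cell and 2214, 2212 and 2442 CPM in ΔRS-res. All 3 ΔRS-res values were higher, with a log2 fold change of 0.15, or 0.17 without the doubted library, that did not pass the test. DCLRE1C, the end-opening nuclease, had a whole-cell value of -0.23 (unadjusted p 0.0333, adjusted p 0.342), or -0.22 without the doubted library. PAXX, the XLF-like scaffold, ran from 31.0 to 33.8 CPM in whole-cell RNA and differed by -0.04, or by -0.03 without it. The gap-filling polymerases POLL and POLM differed by 0.09 and 0.05, or by 0.11 and 0.09 without it. DCLRE1C overlaps SUV39H2 and POLL overlaps DPCD on the opposite strand, and with the strand setting of the counting not known their reads may not be told apart.

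Over all genes, edgeR called 0 of 10 members in whole-cell RNA and 0% of 26800 genes. At an unadjusted p under 0.05 it gave 3 of 10 members, LIG4, XRCC4 and DCLRE1C, against 12.6% of genes. DESeq2 called LIG4 (adjusted p 0.00774), against 6.3% of genes. The fit with the replicate block also called LIG4, against 7.93%. Without the library labelled whole-cell WT-res 3, XRCC5 and NHEJ1 were called, 2 of 10 against 2.06%.

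In cytoplasm 1 of 10 members was called with 6 libraries, against 1.53% of genes, 2 of 10 by DESeq2, against 4.26%, and 4 of 10 with the study's 4 libraries, against 22.1%. By non-overlap of the groups, LIG4 and XRCC4 were lower in ΔRS-res whole-cell RNA, where 9.58% of genes were, and PRKDC was higher, where 9.56% were. Without the doubted library XRCC5, NHEJ1, LIG4 and XRCC4 were lower, against 19.4% of genes, and PRKDC and POLL higher, against 23.5%. In cytoplasm XRCC5 and NHEJ1 were lower, against 9.01% of genes, and 0 members were higher, against 8.4%. The median of the members was -0.13 in whole-cell RNA and -0.05 in 6-library cytoplasm, with 0.00 for all genes tested in each.

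**Figure D1:**
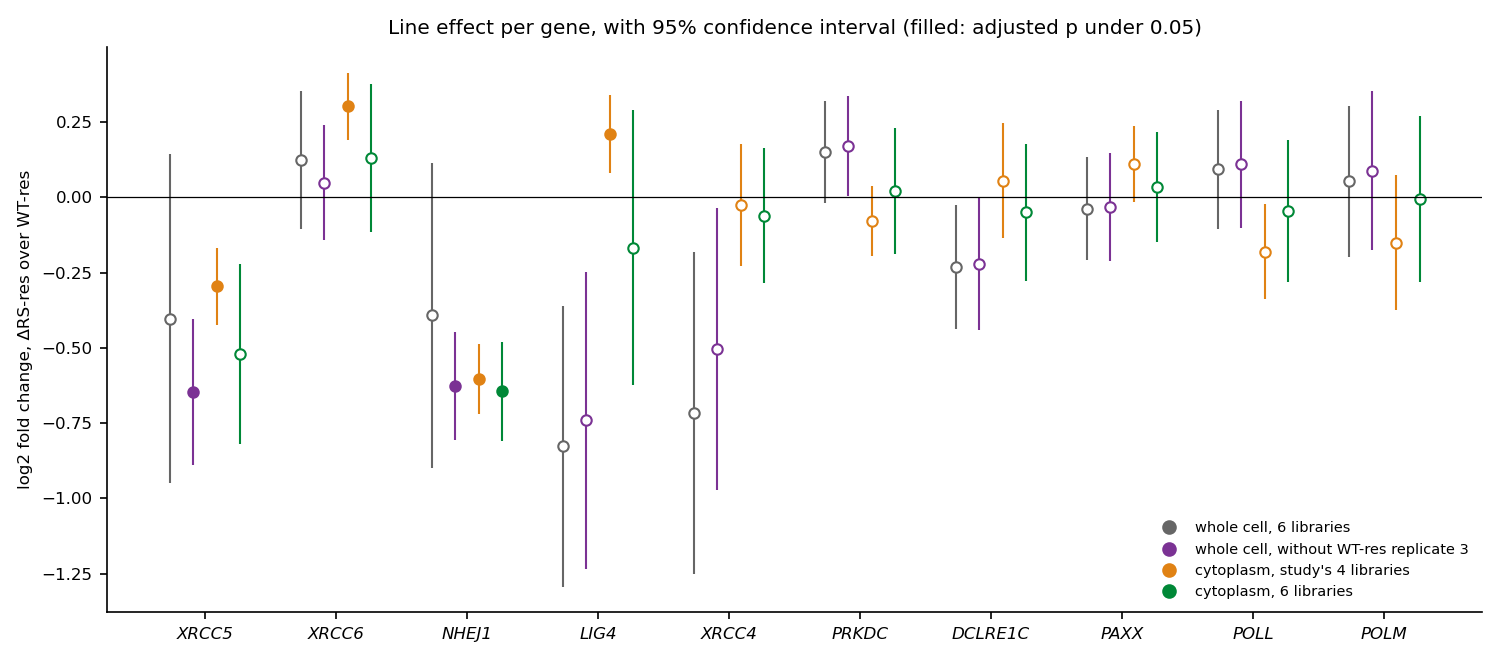
Log2 fold change of ΔRS-res over WT-res for each of the 10 genes with 95% confidence intervals, in whole-cell RNA with and without the doubted library and in 4 and 6 cytoplasmic libraries; filled points have an adjusted p under 0.05. NHEJ1 lay at -0.64 in the 6 cytoplasmic libraries, and XRCC5 and NHEJ1 moved from -0.40 and -0.39 to -0.65 and -0.63 in whole-cell RNA without the doubted library.

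XRCC5 and NHEJ1 both lie in distal 2q, and most genes around them had values below 0 too. Within 5 Mb of XRCC5, 51 genes with a mean of at least 100 counts had a median cytoplasmic log2 fold change of -0.47, and 49 were below 0. Within 5 Mb of NHEJ1, 58 genes had a median of -0.47, and 56 were below 0. The windows overlap and share genes. XRCC5 differed from its window by -0.05 and NHEJ1 by -0.17. With the doubted library left out, the whole-cell medians were -0.48 around both genes, and with it they were -0.29.

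Stretches around the rest of the members had medians nearer 0, but some leaned above it. In 6-library cytoplasm the median around PAXX was 0.15, with 12 of 91 genes below 0. Around XRCC6, itself at 0.13, it was 0.09, with 37 of 139 genes below 0. In cytoplasm the medians around the remaining 8 genes ran from -0.09 to 0.15. In whole-cell RNA LIG4 was at -0.83 and the median of its 24 neighbours was 0.04. XRCC4 was at -0.72 and the median of its 32 neighbours was -0.10. Whether the number of copies of these stretches differs between the lines was not tested.

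Shared start regions gave a closer view. ABHD13, a hydrolase gene whose start lies 24 bp from that of LIG4 and reads away from it, stood at -0.75 in whole-cell RNA (unadjusted p 0.00179, adjusted p 0.212) beside -0.83 for LIG4, and without the doubted library they stood at -0.70 and -0.74. In 6-library cytoplasm the values were -0.16 and -0.17. In the study's 4 libraries they had opposite signs, -0.15 for ABHD13 and 0.21 for LIG4. These LIG4 values are gene sums over all its start sites. ENST00000692222, a LIG4 transcript from the start beside ABHD13, ran from -0.33 to -0.03 with a whole-cell library left out. DESI1, 120 bp from XRCC6, had 0.13 in cytoplasm, as did XRCC6. MCM4, 7 bp from PRKDC, had 0.04 in whole-cell RNA, where PRKDC had 0.15, and 0.01 without the doubted library, where PRKDC had 0.17.

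Likeness of genes across the 12 libraries was the Pearson correlation of their log2 CPM, centred within each fraction. The genes most like XRCC5 were TEX10 on chromosome 9, EIF4E2, MRPL44 and MREG on chromosome 2, and ZNF786 on chromosome 7. Those most like NHEJ1 were HOXD13, TTLL4 and CNOT9 on chromosome 2 and UBE3C and PAXIP1 on chromosome 7. Among the 50 most like genes, 26 for XRCC5 and 25 for NHEJ1 lay on chromosome 2 within 50 Mb, where the whole chromosome holds 6.51% of the 14937 genes compared. The points share lines and fractions, so these are descriptions.

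A transcript was called where the size of its log2 fold change exceeded 0.5 and its unadjusted p was below 0.05. By this rule 10 of 129 member transcripts were called in whole-cell RNA, against 5.25% of all transcripts, 9 of 130 in 6-library cytoplasm, against 4.06%, and 24 of 128 in the study's 4 libraries, against 8.78%. Without the doubted library the whole-cell count was 16 of 131, against 6.28%. At an adjusted p under 0.05 it was 0 in the 3 comparisons with that library kept. For PRKDC the 4-library cytoplasm gave 7 higher and 1 lower of 21 transcripts, and the 6-library cytoplasm gave 0.

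XRCC5 was nearly all 1 transcript, ENST00000392132, with 97.4% of its counts and a cytoplasmic log2 fold change of -0.51 (unadjusted p 0.00542). NHEJ1 was more mixed. Its main coding transcript ENST00000356853 held 55% of counts and had -0.61 (unadjusted p 0.000766). ENST00000698174, a nonsense-mediated decay transcript with 10.5%, had 433, 683 and 713 counts in WT-res cytoplasm and 173, 315 and 219 in ΔRS-res cytoplasm. Those groups did not overlap, and its value was -1.44 (unadjusted p 0.000319) in cytoplasm and -0.05 in whole-cell RNA. With a whole-cell library left out, the doubted one among them, the whole-cell value ran from -0.24 to 0.13.

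LIG4 was split between its start sites. ENST00000442234, from the downstream start at 108215536, held 40.4% of counts and had 577, 1702 and 852 counts in the libraries labelled WT-res whole-cell and 245, 434 and 227 in ΔRS-res. Its whole-cell log2 fold change was -1.73 (unadjusted p 0.00528), and -1.85 without the doubted library. ENST00000692222, from the upstream start at 108218331 beside ABHD13, held 26.5% and had 688, 871 and 1110 counts in WT-res against 733, 799 and 780 in ΔRS-res. Its value was -0.21, and -0.03 without the doubted library. Of these 2 transcripts the one from the downstream start, whose sequence is printed above, passed the threshold, and the difference between the 2 was not tested.

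As a share of LIG4 counts, ENST00000442234 made up 33.5%, 45.3% and 26.9% in the libraries labelled WT-res whole-cell and 16.5%, 23.6% and 13.8% in ΔRS-res. In cytoplasm it made up 55.9% ± 12.8 (SD, n = 3) in WT-res and 52.6% ± 10.4 (SD, n = 3) in ΔRS-res. ENST00000692222 had its highest shares in ΔRS-res whole-cell RNA, 43.5% to 49.4%. These transcripts share most of their sequence, so their counts are RSEM estimates with an uncertainty not held in the table.

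The second question was how end joining transcripts divided between the cytoplasm and the whole cell. XRCC4 was higher in cytoplasmic RNA in both lines, and POLM was lower in both. LIG4, XRCC6 and NHEJ1 were also called higher in cytoplasmic RNA of ΔRS-res. Their WT-res log2 fold changes were 0.27, 0.30 and 0.48, which missed the threshold in edgeR. These are shares of each library, not amounts per cell.

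XRCC4 had 19.5, 20.1 and 22.6 CPM in WT-res cytoplasm, all above the whole-cell values of 8.02, 13.3 and 16.0 CPM. The log2 fold change was 0.74 (SE 0.222, adjusted p 0.035), and 0.93 (adjusted p 0.0115) without the doubted library. In ΔRS-res it had 19.8, 21.1 and 18.6 CPM in cytoplasm against 7.27, 7.95 and 7.63 CPM, a log2 fold change of 1.38 (SE 0.0895, adjusted p 1.31e-05). LIG4 in ΔRS-res went from 14.7 ± 2.01 CPM (SD, n = 3) in whole-cell RNA to 27.8 ± 5.73 CPM (SD, n = 3) in cytoplasm, a log2 fold change of 0.92 (SE 0.167, adjusted p 0.00317).

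POLM had 15.6, 12.4 and 13.2 CPM in WT-res cytoplasm and 18.3, 16.6 and 19.1 CPM in whole-cell RNA, a log2 fold change of -0.40 (SE 0.117, adjusted p 0.0326). In ΔRS-res it was -0.46 (adjusted p 0.0131). XRCC6 and NHEJ1 were higher in ΔRS-res cytoplasm by 0.30 (adjusted p 0.0366) and 0.22 (adjusted p 0.0458). In WT-res they were at 0.30 (adjusted p 0.0843) and 0.48 (adjusted p 0.121). Without the doubted library the WT-res values were 0.21 (adjusted p 0.192) and 0.23 (adjusted p 0.0756). In all, 2 of 10 members were called in WT-res, against 34.3% of genes, or 36.5% without the doubted library, and 5 of 10 in ΔRS-res, against 41.1%. With the cell pellet as a replicate block NHEJ1 was also called in WT-res (0.53, adjusted p 0.0402), against 38.8% of genes, and XRCC5 in ΔRS-res (0.28, adjusted p 0.00158), against 56.5%. The WT-res fit with the block held the doubted library, and the block was not fitted without that library.

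LIG4 and XRCC4 kept their calls in ΔRS-res when any 1 of its 6 libraries was left out. In WT-res, 0 members were called without cytoplasmic replicate 2, without cytoplasmic replicate 3 or without whole-cell replicate 2, fits that called 29.1%, 19.3% and 23.8% of all genes. The fits without cytoplasmic or whole-cell replicate 1 called 1 member each, against 25.3% and 24.1% of genes. Medians over the members were 0.16 in WT-res and 0.17 in ΔRS-res, against 0.14 and 0.12 for all genes with a mean of at least 100 counts and -0.06 and -0.05 for all genes tested. Without the doubted library the WT-res median of the members was 0.10, against -0.04 for all genes tested.

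**Figure D2:**
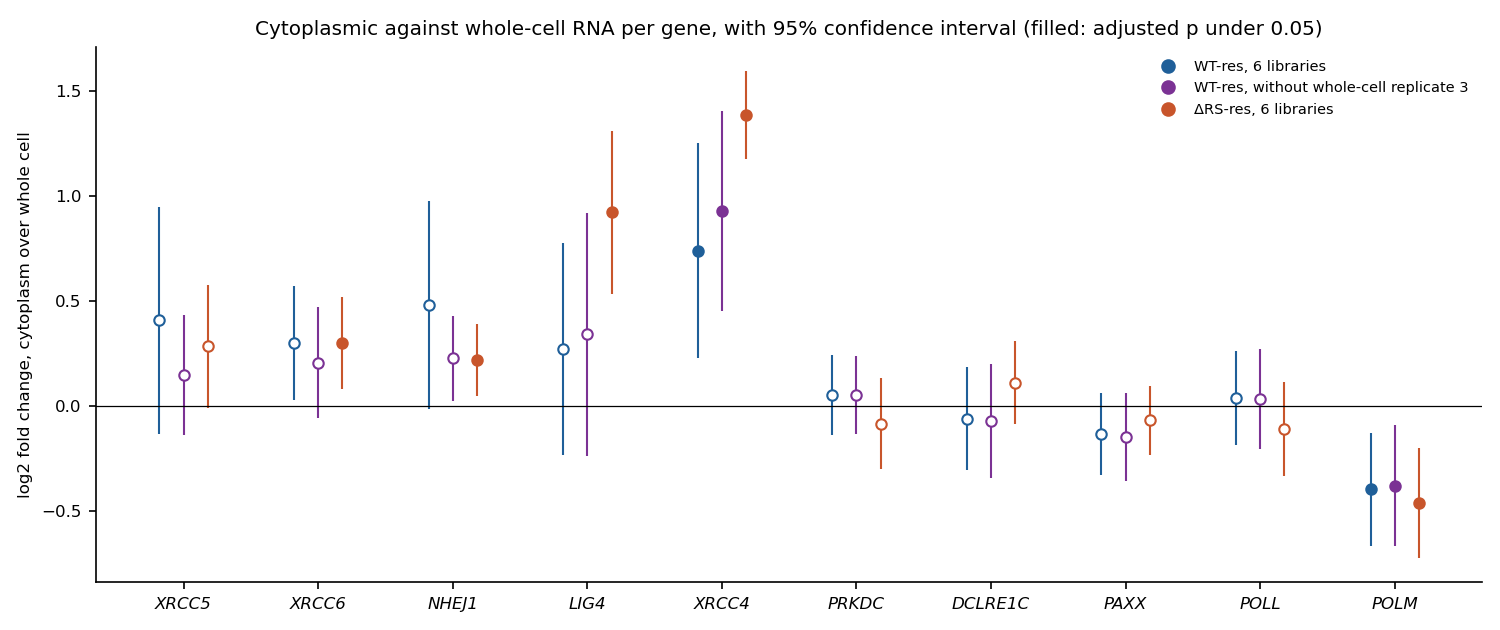
Log2 fold change of cytoplasmic over whole-cell RNA for each of the 10 genes in WT-res, with and without the doubted library, and in ΔRS-res, with 95% confidence intervals and filled points for an adjusted p under 0.05. With all libraries XRCC4 lay at 0.74 and 1.38 and POLM at -0.40 and -0.46.

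Transcripts annotated with a retained intron made up different shares of the 2 fractions for some members. PAXX had 71.7% to 76.2% of its counts on such transcripts in the 6 whole-cell libraries and 48.6% to 59.0% in the 6 cytoplasmic ones. Its retained-intron transcripts were not alike: ENST00000498095 had means of 26.2% in whole-cell and 10.6% in cytoplasmic libraries, ENST00000481187 was level at 8.98% and 9.15%, and ENST00000493968 went the other way, with 5.98% to 8.56% in whole-cell and 11.2% to 18.2% in cytoplasmic libraries. POLM had means of 18.3% and 8.29%, and DCLRE1C of 12.9% and 2.34%. For PRKDC the means were 12.6% and 12.7%. The summed shares of PAXX, POLM and DCLRE1C were thus higher in whole-cell RNA and that of PRKDC was nearly level, with no test run on them.

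The last question was whether the line effect differed between fractions. The interaction was 0.64 (SE 0.266) for XRCC4, with an unadjusted p of 0.0337 and an adjusted p of 0.84, and 0.64 for LIG4, with an unadjusted p of 0.0599. Without the doubted library they were 0.42 and 0.55. edgeR called 0 of 10 members, against 0.00375% of genes (1 gene), and DESeq2 called 0% of genes. At an unadjusted p under 0.05, 1 of 10 members passed, against 5.52% of genes. Without WT-res whole-cell replicate 1, XRCC4 was called, against 1.65% of genes. With all libraries a difference between fractions in the line effect was not shown for any member.

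The wider double-strand break network was read from lists of accessory end joining, alternative end joining, pathway choice, break signalling, homologous recombination and telomere genes. In 6-library cytoplasm, where 1.53% of all genes were called, 0 of 8 accessory, 0 of 9 alternative end joining, 0 of 9 signalling and 0 of 8 telomere genes were called. Of the pathway choice genes 1 of 8 fell, PAXIP1 (-0.57, adjusted p 0.00792), which acts with 53BP1. Of the homologous recombination genes 2 of 18 fell, BARD1 (-0.70, adjusted p 0.0107), the partner of BRCA1, and XRCC2 (-0.87, adjusted p 0.00145).

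Genes around these 3 also had medians below 0. BARD1 is in 2q and XRCC2 and PAXIP1 are in 7q, and the medians of genes within 5 Mb were -0.47, -0.46 and -0.46. In whole-cell RNA none of these lists had a gene called by edgeR with all 6 libraries. BARD1, XRCC2 and PAXIP1 were called there without the doubted library. Some uncalled genes had whole-cell values below those of LIG4 and XRCC4 with all 6 libraries. BRCA2 stood at -1.66, RIF1 at -1.27 and RAD50 at -1.07 (adjusted p 0.212, 0.212 and 0.263). Without the doubted library these genes stood at -1.09, -0.90 and -0.64. The medians of their lists were -0.08, -0.15 and -0.28 with all 6 libraries. The interactions of BRCA2, RIF1 and RAD50 were 1.51, 1.21 and 1.13, also uncalled. Between fractions of ΔRS-res, where 41.1% of all genes were called in either direction, calls higher in cytoplasm numbered 3 of 8 accessory, 7 of 9 alternative end joining, 3 of 8 pathway choice, 7 of 9 signalling, 7 of 18 homologous recombination and 5 of 8 telomere genes, and calls lower numbered 1 accessory and 2 homologous recombination genes. In WT-res, where 34.3% were called, calls higher numbered 1, 2, 1, 6, 4 and 2 genes of these lists in the same order, and calls lower numbered 1 accessory and 2 homologous recombination genes. Without the doubted library, where 36.5% were called, the calls higher numbered 4, 3, 2, 6, 5 and 4. The shares of all genes cover both directions. With all libraries, genes with a mean of at least 100 counts had medians of 0.14 in WT-res and 0.12 in ΔRS-res. For all genes tested the medians were -0.06 and -0.05, so these shares are not a like background for the lists.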

How the data were processed

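The 12 libraries were rRNA-depleted and sequenced as 100 bp paired ends. Per the labels and the methods of the study, the authors aligned reads with STAR and deposited RSEM expected counts per transcript (Ensembl, GRCh38), which are estimated counts and need not be whole. The strand setting was not given in the sources used here. Counts were rounded per transcript and summed per gene. Genes or transcripts with a mean above 2 in the libraries of a fit were tested with TMM scaling and edgeR 4.0.16 (quasi-likelihood test, Benjamini-Hochberg over all features, called at an adjusted p under 0.05) in R 4.3.3. Transcripts were called by the threshold of the study (unadjusted p under 0.05, log2 fold change over 0.5 in size). DESeq2 1.42.0 was an alternative. CPM used TMM over 12 libraries, and TPM used GENCODE 44 transcript lengths, which matched 99.72% of transcripts. The edgeR step was tested on simulated counts.

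Named genes were all 10 members, their transcripts with at least 10% of counts or called in at least 2 comparisons, and up to 3 called genes per pathway list. The figures show the members and transcripts named by this rule. BRCA2, RIF1 and RAD50 were added for their low whole-cell values. The members and lists were chosen with earlier results of these data known.

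Pairing was checked from deviations from group means over 14937 genes. Such deviations cancel within a group, so the r values of a group are not independent checks. For same-numbered libraries of the 2 lines r was 0.54, 0.55 and 0.68 in whole-cell RNA and -0.42, 0.62 and 0.47 in cytoplasm. The sample sheet of the study gives the fractions of a line and number 1 cell pellet identifier, although its methods give a single well and pooled wells. For WT-res those pairs gave r of -0.17, 0.59 and 0.47. For ΔRS-res they gave 0.52, 0.47 and 0.80. Alternatives covered the normalization, the filter, the threshold, the block and each library left out.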

Additional observations from a re-analysis of the deposited data

How the results depend on the processing

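Whole-cell RNA gave 0 of 10 members called (0% of all genes), 1 with DESeq2 (6.3%), 1 with the replicate block (7.93%), 2 by the threshold of the study (6.35%) and 0 to 2 with each library left out (0% to 2.24%). The study's 4 cytoplasmic libraries gave 4 (22.1%), 1 by the threshold of the study (13.1%) and 1 to 4 with a library left out (8.14% to 24.4%), where the lone library of a line is assumed to vary like the others. No paired analysis was possible because the lines share only number 1 among these 4. The 6 cytoplasmic libraries gave 1 (1.53%), and 2 each with DESeq2 (4.26%), without the filter (1.49%), with the replicate block (520 of 25947 genes), which added XRCC5 (adjusted p 0.0427), and by the threshold of the study (5.67%). Member transcripts called in whole-cell RNA were 10 (5.25% of all transcripts), 16 with the replicate block (5.66%), 0 at an adjusted p under 0.05 (0%) and 5 to 16 with a library left out (3.81% to 6.28%). At an adjusted p the cytoplasmic counts, of 4 and of 6 libraries, were 0 each (0% and 0.0241%). Leaving out a library gave 0 to 2 members for the fraction effect in WT-res (19.3% to 36.5% of genes), 2 to 5 in ΔRS-res (32.0% to 42.7%), with 2 without cytoplasmic replicate 1 or 2, and 0 to 1 for the interaction (0.00373% to 1.65%). In the study's 4 cytoplasmic libraries NHEJ1 alone was called without ΔRS-res replicate 1 or 2. Without WT-res whole-cell replicate 1, LIG4 and XRCC4 were called in whole-cell RNA and XRCC4 in the interaction. The cause was not tested.

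Of the fold changes of single genes and transcripts, 43 changed sign under an alternative, 39 of them with a library left out, and none was called either way. With DESeq2 size factors ENST00000692222 was at -0.0007 in 4-library cytoplasm, DCLRE1C was at 0.0066 in the WT-res fraction effect by those factors and by DESeq2, and XRCC6 was at 0.0247 in the interaction without the filter. With a library left out, whole-cell values ran from -0.0393 to 0.1006 for POLM and from -0.2397 to 0.1344 for ENST00000698174. In 4-library cytoplasm they ran from -0.1452 to 0.0903 for XRCC4, -0.0525 to 0.1557 for DCLRE1C, -0.2174 to 0.2144 for ENST00000692222 and -0.0048 to 0.2479 for ENST00000338635. In 6-library cytoplasm they ran from -0.2842 to 0.0408 for LIG4, -0.1138 to 0.0094 for XRCC4, -0.0603 to 0.0662 for PRKDC, -0.1293 to 0.017 for DCLRE1C, -0.004 to 0.0718 for PAXX, -0.1244 to 0.0119 for POLL, -0.0929 to 0.0829 for POLM, -0.4977 to 0.1168 for ENST00000442234 and -0.0265 to 0.1752 for ENST00000692222. For the WT-res fraction effect they ran from -0.1249 to 0.0177 for DCLRE1C and -0.0163 to 0.1001 for POLL, and for the interaction from -0.2857 to 0.1029 for XRCC5, -0.073 to 0.0885 for XRCC6 and -0.1681 to 0.0214 for POLM.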
